A study of Homo sapiens with 6 samples.

Results

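The OAS and IFIT genes encode interferon-induced proteins that bind foreign RNA, and all 8 genes named for examination, OAS1, OAS2, OAS3, OASL, IFIT1, IFIT2, IFIT3 and IFIT5, were measured among the 18417 genes of the arrays. They were chosen by symbol from the platform annotation, each through its 1 probe set, and with earlier results of these data known. The arrays came from A673 and SK-N-MC, established human cell lines of Ewing sarcoma, a cancer found mostly in the bones of young people. Cells of each line were transfected with an siRNA against DKK2 (siDKK2), with an siRNA against ITM2A (siITM2A), or with a non-silencing control siRNA, and each of these 6 conditions was hybridised to 1 array. No untransfected cells were analysed here, so the control itself is a transfected culture, and the labels give no time after transfection. The ITM2A siRNA carries the number 7 in the A673 label and in the study's design text, but 1 in the SK-N-MC label, and it is not settled if the oligonucleotide was the same. DKK2 encodes a secreted Wnt modulator and ITM2A a membrane protein that served as a second, separate knock-down.

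Interferon signalling ends in the factor ISGF3, which holds IRF9 and binds interferon-stimulated response elements in promoters. The OAS enzymes sense double-stranded RNA and make a short oligoadenylate messenger that sets off the cutting of cellular and viral RNA. The IFIT proteins bind RNA ends that lack the marks of the cell's own messenger RNA and block its translation. Both families are kept low in unstimulated cells and are standard readouts of an interferon or double-stranded RNA response. IFIT2, IFIT3, IFIT1 and IFIT5 lie in that order on chromosome 10, with only IFIT1B between them, and OAS1, OAS3 and OAS2 are neighbours on chromosome 12, where OASL also lies.

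Promoters are shown for members of both families, since the 2 families share this route of induction by interferon. RefSeq windows of 300 bases (GRCh38.p14, 250 before and 50 from the start site on, all on the plus strand) were matched for 5 of the 8 genes, with 2 windows for IFIT3. Capitals mark the letters GAAANNGAA, the core of an interferon-stimulated response element, read on either strand, in the windows of IFIT1 (chr10:89392373-89392672), IFIT5 (chr10:89414318-89414617) and OAS3 (chr12:112938224-112938523). In OAS1 (chr12:112906712-112907011) they mark AANNGAAA, a shorter core that overlaps the first motif in its letters.
IFIT1: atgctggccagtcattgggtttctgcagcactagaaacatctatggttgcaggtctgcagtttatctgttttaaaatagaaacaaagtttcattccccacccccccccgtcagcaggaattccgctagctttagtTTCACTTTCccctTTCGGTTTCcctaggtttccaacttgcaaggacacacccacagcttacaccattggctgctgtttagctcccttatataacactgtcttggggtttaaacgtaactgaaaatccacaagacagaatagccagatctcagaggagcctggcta
IFIT5: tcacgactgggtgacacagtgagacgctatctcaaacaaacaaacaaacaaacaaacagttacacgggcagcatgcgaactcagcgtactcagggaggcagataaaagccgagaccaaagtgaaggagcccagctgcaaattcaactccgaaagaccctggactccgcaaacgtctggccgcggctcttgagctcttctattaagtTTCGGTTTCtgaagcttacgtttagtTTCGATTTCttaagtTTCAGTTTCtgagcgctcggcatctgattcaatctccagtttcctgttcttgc
OAS3: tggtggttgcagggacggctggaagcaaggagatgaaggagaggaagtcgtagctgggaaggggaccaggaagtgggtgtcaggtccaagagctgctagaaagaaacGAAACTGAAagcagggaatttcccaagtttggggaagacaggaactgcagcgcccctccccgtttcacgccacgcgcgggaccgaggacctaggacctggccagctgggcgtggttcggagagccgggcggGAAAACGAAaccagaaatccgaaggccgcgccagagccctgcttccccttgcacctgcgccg
OAS1: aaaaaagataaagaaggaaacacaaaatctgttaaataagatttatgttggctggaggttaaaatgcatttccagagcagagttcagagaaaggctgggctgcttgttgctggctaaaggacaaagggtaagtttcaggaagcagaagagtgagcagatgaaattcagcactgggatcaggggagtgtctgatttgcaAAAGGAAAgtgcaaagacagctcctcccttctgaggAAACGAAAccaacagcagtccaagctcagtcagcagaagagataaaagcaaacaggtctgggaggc

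IFIT5 held 3 matches to GAAANNGAA, beginning 44, 18 and 3 bases before its start site, the last of them running past that site. IFIT1 held 2, at 115 and 102 bases before the start, OAS3 held 2, at 143 and 12 bases, and the 2 IFIT3 windows held 2 and 3. OAS1 held none, and held 2 matches to AANNGAAA, at 52 and 16 bases before the start. Of all 35116 windows in the table, 8.11% held at least 1 match to GAAANNGAA, 0.701% at least 2 and 0.0883% at least 3, while 22.8% held AANNGAAA. These are matches of letters and were not tested as binding sites.

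Array medians lay between 3.35 and 3.44 on the log2 scale, and arrays correlated at 0.986 to 0.991 within a line and 0.959 to 0.965 between lines. Each target was lowest with its own siRNA. DKK2 was 1.89-fold below control with siDKK2 in A673 and 2.85-fold in SK-N-MC, and did not pass in the fit over both lines (limma adjusted p = 0.209). ITM2A was 11.3-fold below control with siITM2A in A673 and 10.5-fold in SK-N-MC, and passed (limma adjusted p = 0.000442). DKK2 stood at 7.73 with siDKK2, 9.13 with siITM2A and 8.64 with control in A673, and at 6.50, 7.94 and 8.01 in SK-N-MC. ITM2A stood at 9.21 with siDKK2, 5.03 with siITM2A and 8.52 with control in A673, and at 9.66, 6.10 and 9.48 in SK-N-MC. Of 10 Ewing sarcoma markers 9 were measured and all lay above the array median on every array. Of 7 measured immune cell markers 6 lay below it on every array, among them PTPRC, the common leukocyte antigen, at 1.90 to 2.09. All 4 endothelial markers and 2 to 3 of 6 fibroblast markers were below it as well.

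In A673, every one of the 8 genes was lower with siDKK2 than with the control siRNA, by 3.83-fold to 26.1-fold, and every one was in between with siITM2A. In SK-N-MC 6 of the 8 were lower with siDKK2, by 1.64-fold to 3.87-fold, while OAS2 and OASL stood between 2.54 and 2.78 on all 3 arrays. A673 control cells were 3.44-fold to 9.63-fold above SK-N-MC control cells. With siDKK2 6 of the 8 genes differed by less than 0.5 on the log2 scale between the lines. These 6 ran from -0.22 for OASL, position 5335 from the lowest of all 18417 genes, to 0.27 for IFIT1, position 14762. Many other genes thus lay in the same range, and the share within 0.5 was not counted. The plot of levels by array shows both patterns.

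**Figure D1:**
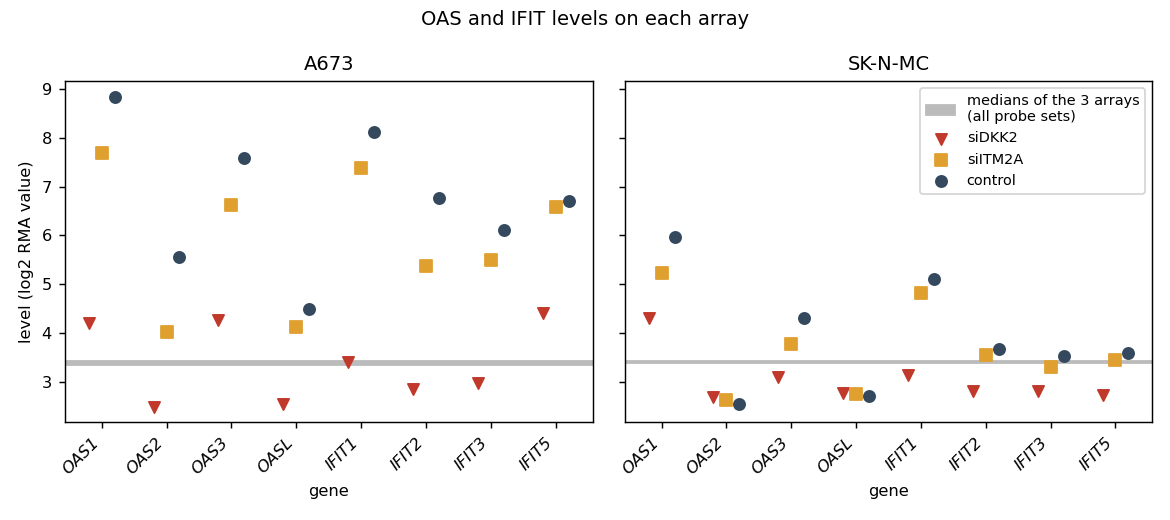
Level of each OAS and IFIT gene (log2 RMA value, y axis) on the 3 arrays of A673 (left) and of SK-N-MC (right), with siDKK2, siITM2A and control as separate points, 1 array each, and no error bars. The grey band spans the medians of the arrays over all probe sets, near 3.4. With siDKK2 4 of 8 genes in A673 and 7 of 8 in SK-N-MC lie below it. Many genes do: with siDKK2 IFIT1 at 3.41 in A673, inside the band, had 42.4% of all genes lower. In SK-N-MC IFIT1 at 3.15, under the band, had 37.3% of all genes lower.

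OAS1 (probe set 7958884) encodes the smallest of the synthetases. In A673 it stood at 4.22 with siDKK2, 7.69 with siITM2A and 8.84 with control. In SK-N-MC it stood at 4.30, 5.24 and 5.96 in the same order of siRNAs. The siDKK2 arrays of both lines thus lay within 0.0848 of each other, while the control arrays were 2.88 apart. The siDKK2 level was 4.05% of the control level in A673 and 31.6% in SK-N-MC. OAS1 is the 1 member whose probe set stayed above the array median on all 6 arrays, by at least 0.866.

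OAS3 (probe set 7958895) encodes the largest synthetase, the one that prefers long double-stranded RNA. Its A673 levels were 4.27 with siDKK2, 6.61 with siITM2A and 7.58 with control. Its SK-N-MC levels were 3.11, 3.77 and 4.32. The order siDKK2, siITM2A, control was the same in both lines, and the siDKK2 level was 9.92-fold below control in A673, against 2.31-fold below it for SK-N-MC. Unlike OAS1, OAS3 kept a gap of 1.17 between the lines with siDKK2, and the A673 siDKK2 array sat at about the level of SK-N-MC control cells.

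OAS2 (probe set 7958913), a membrane-associated synthetase, and OASL (probe set 7967117), a relative that has lost synthetase activity and instead boosts RIG-I signalling, had levels near the bottom of the scale in SK-N-MC. OAS2 stood at 2.49 with siDKK2, 4.02 with siITM2A and 5.57 with control in A673. It stood at 2.69, 2.62 and 2.54 in SK-N-MC. OASL stood at 2.56, 4.12 and 4.50 in A673. It stood at 2.78, 2.76 and 2.71 in SK-N-MC. For both genes all 3 SK-N-MC arrays thus lay below their array medians, at -0.840 to -0.604 relative to them, and the A673 siDKK2 array was also below its median, at -0.85 for OAS2 and -0.79 for OASL. A673 differences from control with siDKK2 were 8.42-fold for OAS2 and 3.83-fold for OASL, or -2.22 and -1.15 on the log2 scale with values raised to the array median, and in SK-N-MC both genes were 1.05-fold to 1.11-fold higher by value.

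IFIT1 (probe set 7929065) binds RNA with a bare triphosphate end or with a cap that lacks ribose methylation. Its A673 levels were 3.41 with siDKK2, 7.39 with siITM2A and 8.12 with control. Its SK-N-MC levels were 3.15, 4.81 and 5.10. IFIT1 had the widest siDKK2 difference among the members in each line, 26.1-fold in A673 and 3.87-fold in SK-N-MC, which ranked at positions 2 and 3 from the lowest of all genes. Between siDKK2 and siITM2A it was the lowest of all genes in A673, at -3.98 on the log2 scale. With siITM2A it was lower than control 1.66-fold in A673, at position 145 from the lowest of all genes, and 1.22-fold for the SK-N-MC pair.

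IFIT2 (probe set 7929047) and IFIT3 (probe set 7929052) bind IFIT1 and each other, and IFIT3 stabilises IFIT1 and helps it hold RNA. IFIT2 stood at 2.85 with siDKK2, 5.37 with siITM2A and 6.76 with control in A673, and at 2.81, 3.55 and 3.68 in SK-N-MC. IFIT3 stood at 2.99, 5.49 and 6.12 in A673, and at 2.83, 3.32 and 3.54 in SK-N-MC. In A673 siDKK2 was 15.0-fold below control for IFIT2 and 8.76-fold for IFIT3. Both siDKK2 values lay below the array median, at -0.49 and -0.36 relative to it, where background was not measured; raised to that median, the log2 differences were -3.41 and -2.77. In SK-N-MC the control arrays were only 0.296 and 0.162 above the array median, and the siDKK2 differences were 1.83-fold and 1.64-fold.

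IFIT5 (probe set 7929072), which acts alone and binds triphosphate RNA and some transfer RNAs, separated siDKK2 from both other siRNAs. In A673 it stood at 4.42 with siDKK2, 6.58 with siITM2A and 6.71 with control. In SK-N-MC it stood at 2.73, 3.45 and 3.60. The siITM2A and control arrays were nearly level in each line, at 91.9% of control in A673 and 90.5% in SK-N-MC, while siDKK2 stood at 20.5% and 55.0%. It was also the 1 member whose 3 A673 arrays all lay above its 3 SK-N-MC arrays, a pattern that 18.1% of all genes showed, and it kept the widest gap between the lines with siDKK2, 1.69 on the log2 scale.

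Within A673, 8 of 8 genes had a siDKK2 level at least 2-fold below control, against 0.728% of all 18417 genes. At least 4-fold lower were 7 of 8, the least changed of them being IFIT5 at -2.28, position 30 from the lowest. OASL, at -1.94 not 4-fold lower, was at position 38, so fewer than 38 of all 18417 genes were 4-fold lower. The percentile 1 of all genes was -0.88 on the log2 scale. The median difference of the 8 members was -3.22, where the median of all genes was -0.04. In SK-N-MC OAS1, OAS3 and IFIT1, 3 of 8, were at least 2-fold lower, against 0.201% of all genes, with a median of -0.87 where all genes had -0.01. These same 3 were the members at least 2-fold lower in both lines, as were 0.0706% of all genes. Each line had 1 array per siRNA, so these counts have no replicate check within a line, and no test could compare the size of the response between lines. The paired bars of differences from control show the contrast between A673 and SK-N-MC.

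**Figure D2:**
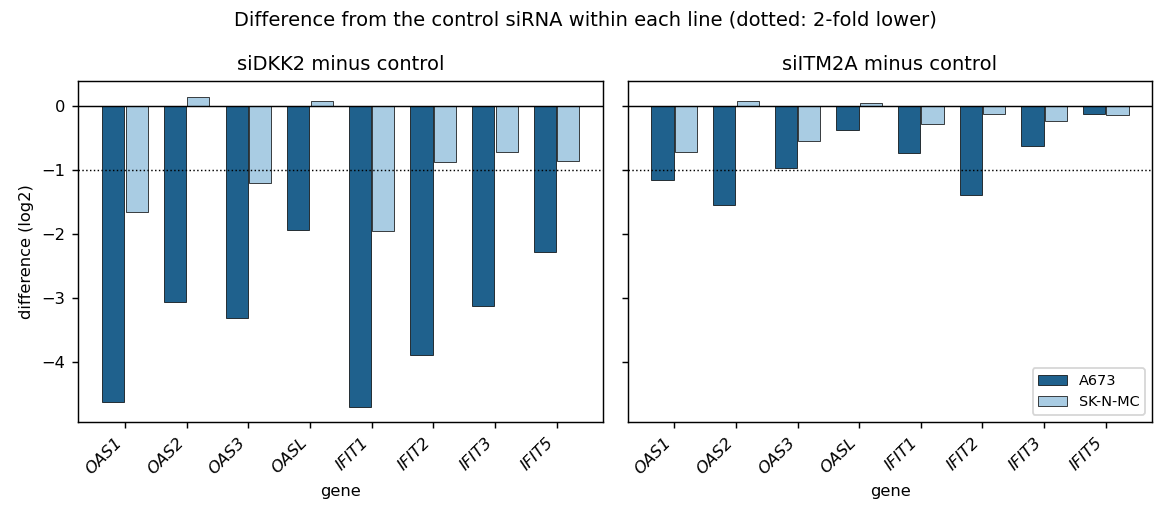
Difference from the control siRNA (log2, y axis) for each gene with siDKK2 (left) and siITM2A (right), as bars from 0 for A673 and SK-N-MC, 1 array against 1 array, so without error bars. With siDKK2 all 8 A673 bars pass the dotted line at 2-fold and 3 of 8 SK-N-MC bars do; OAS2 and OASL bars in SK-N-MC lie just above 0.

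Taking the lines as the 2 replicates of each siRNA, no member passed the threshold for siDKK2 against control over all genes (limma, cell line as a block, 0 of 8 at an adjusted p under 0.05, against 0.0109% of all genes). All 8 were at an unadjusted p under 0.05, as were 8.68% of all genes. The fitted difference was -3.33 ± 0.53 for IFIT1 (SE, n = 2 lines, limma adjusted p = 0.213), -3.14 ± 0.57 for OAS1 (0.231) and -2.26 ± 0.41 for OAS3 (0.231). For IFIT2 it was -2.39 ± 0.54 (limma adjusted p = 0.306), for IFIT3 -1.92 ± 0.47 (0.324) and for IFIT5 -1.57 ± 0.31 (0.26). OAS2 at -1.46 ± 0.57 (limma adjusted p = 0.535) and OASL at -0.93 ± 0.39 (0.556) had the largest error for their size. Leaving out 1 array at a time moved every member by over 1.5 times: OAS1 ran from -4.52 to -1.77, OAS2 from -2.68 to -0.25, OAS3 from -3.20 to -1.31 and OASL from -1.83 to -0.03. IFIT1 ran from -4.59 to -2.06, IFIT2 from -3.59 to -1.18, IFIT3 from -3.03 to -0.82 and IFIT5 from -2.29 to -0.86. The end nearest 0 came in each case from leaving out an A673 array, and the far end from leaving out an SK-N-MC array. The median of the 8 fitted differences was -2.09, where that of all genes was -0.02. Leaving out the A673 control array gave -1.27, and leaving out A673 siDKK2 gave -1.02. Leaving out SK-N-MC control gave -2.78, and leaving out SK-N-MC siDKK2 gave -3.12. Each of these fits takes the lone sample of a group to vary like the other groups.

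**Figure D3:**
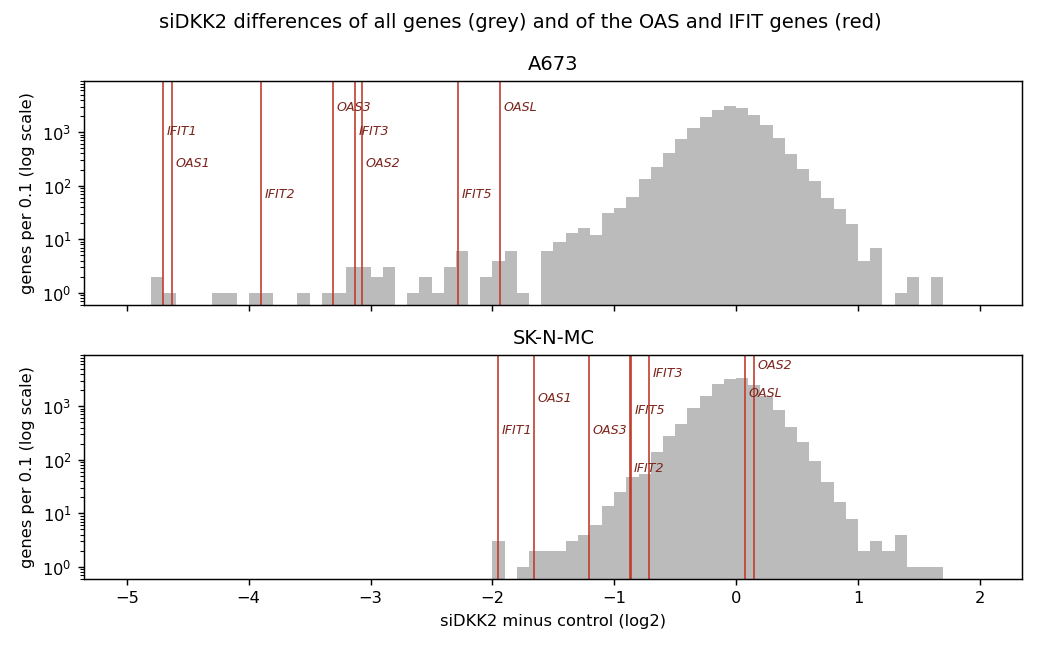
Number of genes per 0.1 of the siDKK2 minus control difference (log2, x axis; y axis on a log scale) for A673 (top) and SK-N-MC (bottom), with red lines at the 8 OAS and IFIT genes. In A673 the 8 lines run from -4.71 to -1.94, left of the bulk of genes; in SK-N-MC they run from -1.95 to 0.15, with OAS2 and OASL inside the bulk.

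With siITM2A the genes were lower than control by smaller amounts. In A673 8 of 8 were lower, from 0.12 to 1.55 on the log2 scale, and OAS2, IFIT2 and OAS1, 3 of 8, were at least 2-fold lower, against 0.239% of all genes. In SK-N-MC 6 of 8 were lower, the widest difference being OAS1 at -0.72, and 0 of 8 were at least 2-fold lower, against 0.076% of all genes. The median difference was -0.85 for A673 and -0.19 for SK-N-MC, where all genes had -0.04 and -0.01. The fitted differences ran from -0.94 ± 0.57 for OAS1 to -0.13 ± 0.31 for IFIT5 (SE, n = 2 lines), and 0 of 8 passed (limma adjusted p = 0.803 to 0.975; 0 of 8 at an unadjusted p under 0.05, as were 6.91% of all genes). Their fitted median of -0.62 became 0.29 when A673 control was left out, -1.35 when SK-N-MC control was, and -0.23 when SK-N-MC siITM2A was. The siDKK2 and siITM2A comparisons use the same control arrays.

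The direct difference between siDKK2 and siITM2A does not involve the control values. In A673 8 of 8 genes passed 2-fold lower, against 0.505% of all genes, from -3.98 for IFIT1 to -1.52 for OAS2. In SK-N-MC IFIT1 alone, at -1.67, passed 2-fold, against 0.168% of all genes, and OAS1 followed at -0.94, with OAS2 and OASL at 0.07 and 0.02. In both lines at once IFIT1 was the 1 member of 8, against 0.0489% of all genes. The fitted difference was -2.82 ± 0.53 for IFIT1 (limma adjusted p = 0.26), -2.21 ± 0.57 for OAS1 (0.38), -1.50 ± 0.41 for OAS3 (0.402) and -1.44 ± 0.31 for IFIT5 (0.305). The other 4 had limma adjusted p-values of 0.483 to 0.791, so 0 of 8 passed, against 0.0163% of all genes, and 6 of 8 were at an unadjusted p under 0.05, as were 8.32% of all genes. With 1 control array left out, or only the 4 compared arrays fitted, IFIT1 passed (limma adjusted p = 0.0481), and 7 members passed without the SK-N-MC siDKK2 array, where the median was -2.53. The median was -1.50 on all arrays and -0.49 without the A673 siDKK2 array. The order siDKK2 below siITM2A below control held for 8 of 8 genes in A673 and for 6 of 8 in SK-N-MC, and 6 of 8 showed it in both lines, as did 4.7% of all genes.

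A673 and SK-N-MC were set against each other with the siRNA as a block. OAS1, OAS3, IFIT1, IFIT2, IFIT3 and IFIT5, 6 of 8, were higher in A673 (limma, adjusted p under 0.05), against 13.8% of all genes called higher in A673 and 28.5% called in either direction. IFIT5 was higher by 2.64 ± 0.26 (SE, n = 3 siRNAs, limma adjusted p = 0.000114) and OAS3 by 2.42 ± 0.33 (0.000713). IFIT1 was higher by 1.95 ± 0.43 (limma adjusted p = 0.00918), OAS1 by 1.75 ± 0.47 (0.0224), IFIT2 by 1.65 ± 0.44 (0.0236) and IFIT3 by 1.64 ± 0.38 (0.0119). OAS2 at 1.41 ± 0.47 (limma adjusted p = 0.0555) and OASL at 0.97 ± 0.32 (0.0512) did not pass. All 8 were at an unadjusted p under 0.05, against 37.0% of all genes. Without the siRNA term, without either siITM2A array, with robust moderation or with values floored at the array median, OAS3 and IFIT5 alone passed. With either siDKK2 array left out, 8 of 8 passed and the median was 2.56; it was 1.70 on all arrays, and 1.17 with 4 members passing when either control array was left out.

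The line differences are given for each siRNA as values. With control, A673 exceeded SK-N-MC by 1.78 for OASL to 3.27 for OAS3 on the log2 scale, and all 8 genes were at least 2-fold higher, against 5.23% of all genes. With siITM2A the differences ran from 1.36 for OASL to 3.13 for IFIT5, again with 8 of 8 at least 2-fold higher, against 5.34%. With siDKK2 they ran from -0.22 for OASL to 1.69 for IFIT5 with a median of 0.10, and OAS3 and IFIT5, 2 of 8, were at least 2-fold higher, against 4.77%. They were thus the 2 members at least 2-fold higher with every siRNA, against 3.25% of all genes. For 7 of 8 genes, all but IFIT5, the A673 siDKK2 array lay below the SK-N-MC control array. The share of all genes in this order was not counted. The gene medians of these arrays were 3.97 and 3.96, so the count alone does not set the members apart from other genes. The 2 levels were close for OAS3 (4.27 and 4.32), OAS2 (2.49 and 2.54) and OASL (2.56 and 2.71). OAS2 and OASL lay below the array median on both of these arrays. The levels were further apart for OAS1 (4.22 and 5.96), IFIT1 (3.41 and 5.10), IFIT2 (2.85 and 3.68) and IFIT3 (2.99 and 3.54). With 1 array per line and siRNA no interaction could be tested. With siDKK2 OAS2, OASL, IFIT2 and IFIT3, 4 of the 6 genes within 0.5 between the lines, lay below the array median in both lines. The SK-N-MC siDKK2 values lay below the array median for 7 of 8 genes, and background was not measured, so a smaller response of that line and a floor cannot be told apart. The line plot of differences between A673 and SK-N-MC shows these values.

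**Figure D4:**
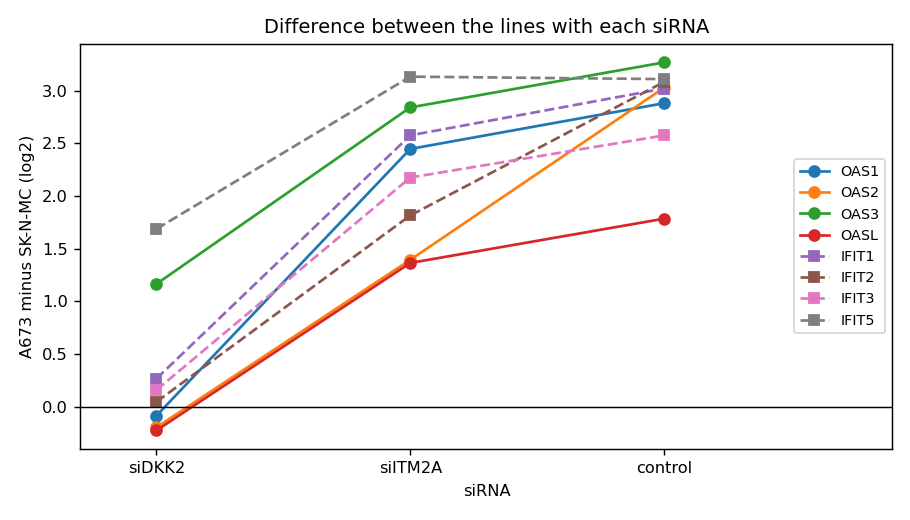
A673 minus SK-N-MC (log2, y axis) for each OAS gene (circles, solid lines) and IFIT gene (squares, dashed lines) with siDKK2, siITM2A and control (x axis), 1 array of each line per point. With siDKK2 6 of 8 genes lie within 0.5 of 0, as many other genes do, and with control all 8 lie between 1.78 and 3.27.

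Where each array's values below its median were raised to that median, the SK-N-MC siDKK2 differences were -1.71 for IFIT1, -1.66 for OAS1 and -0.93 for OAS3. They were -0.29 for IFIT2, -0.15 for IFIT3, -0.21 for IFIT5 and 0.01 for OAS2 and OASL. The A673 differences then ran from -4.71 for IFIT1 to -1.15 for OASL. Most of the SK-N-MC difference of IFIT2, IFIT3 and IFIT5 therefore lay below the array median, and that of IFIT1 and OAS1 above it.

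Partners of the 2 families were looked at by lists chosen with earlier results known. None of the measured members of these 8 lists passed for siDKK2 against control in either direction (limma), and each list is given by its values. Among 3 measured partners of the oligoadenylate pathway, ABCE1, a ribosome recycling factor, had siDKK2 differences of -0.05 (A673) and -0.30 (SK-N-MC), PDE12, which degrades the oligoadenylate messenger, of -0.03 and -0.00, and AKAP7, which has a related phosphodiesterase fold, of 0.15 and 0.04. The list's medians of -0.03 and -0.00 were close to those of all genes, -0.04 and -0.01.

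The 4 measured genes of capping and cap methylation, which make the end structure that IFIT1 reads, had medians of -0.21 for A673 and -0.05 for SK-N-MC. CMTR1, the ribose methyltransferase that marks messenger RNA caps as self and is itself interferon-induced, differed by -0.96 and -0.05 (fitted -0.50 ± 0.21, limma adjusted p = 0.566). RAMAC, the activator of the cap guanine methyltransferase, differed by -0.18 and -0.19, and the capping enzyme RNGTT by -0.23 and -0.06. Of 12 measured subunits of eIF3, the initiation factor that IFIT1 and IFIT2 bind, none reached 2-fold. EIF3H, EIF3E and EIF3A differed by -0.10 to -0.20 in each line, and the list's medians were 0.04 and -0.03.

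RNA sensors had the widest shift among the lists, with medians of -1.32 (A673) and -0.27 (SK-N-MC), and with 3 and 2 of 6 at least 2-fold lower. RIGI, the cytosolic sensor of triphosphate RNA, differed by -2.81 and -1.16, and EIF2AK2, the double-stranded RNA kinase, by -2.00 and -1.0. IFIH1, the sensor of long double-stranded RNA, differed by -2.87 for A673 and -0.16 for SK-N-MC. Its SK-N-MC levels were 5.40 with siDKK2, 5.44 with siITM2A and 5.57 with control, well above the array medians.

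Among the receptor and ISGF3 genes the medians were -0.02 for A673 and 0.04 for SK-N-MC, and 1 of 5 was at least 2-fold lower in each line. That gene was IRF9, the DNA-binding subunit of ISGF3, at -1.93 and -1.29 (fitted -1.61 ± 0.17, SE, n = 2 lines, limma adjusted p = 0.0566). The receptor chain gene IFNAR1 differed by -0.44 and -0.16 and the receptor-bound kinase gene TYK2 by 0.10 and 0.05. In the IRF3 axis the medians were -0.30 and -0.01, with IRF1 at -0.91 and -0.05 and the kinase gene IKBKE at -0.30 and -0.01. Among the 4 feedback inhibitors USP18, which removes ISG15 and blocks the receptor, differed by -2.36 and -0.94, SOCS1 by 0.51 and 0.30, SOCS3 by -0.22 and -0.13, and PIAS1 by 0.02 and -0.07.

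Interferon genes themselves were near the bottom of the scale. Of 8 measured, 6 to 7 lay below the array median on each array, and IFNB1, named after its values were seen, stood at 1.79 to 2.03 throughout. The list's siDKK2 medians were 0.00 and 0.01. IFNL3 differed by 0.87 for A673 and 0.38 for SK-N-MC, IFNE by -0.25 and -0.10 and IFNL1 by -0.01 and -0.05. IFNL2, also named after its values were seen, differed by -1.40 for A673 and 0.10 for SK-N-MC, against the direction of IFNL3, a near-identical copy whose probes may share signal. The plot by gene list sets these values beside the OAS and IFIT genes.

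**Figure D5:**
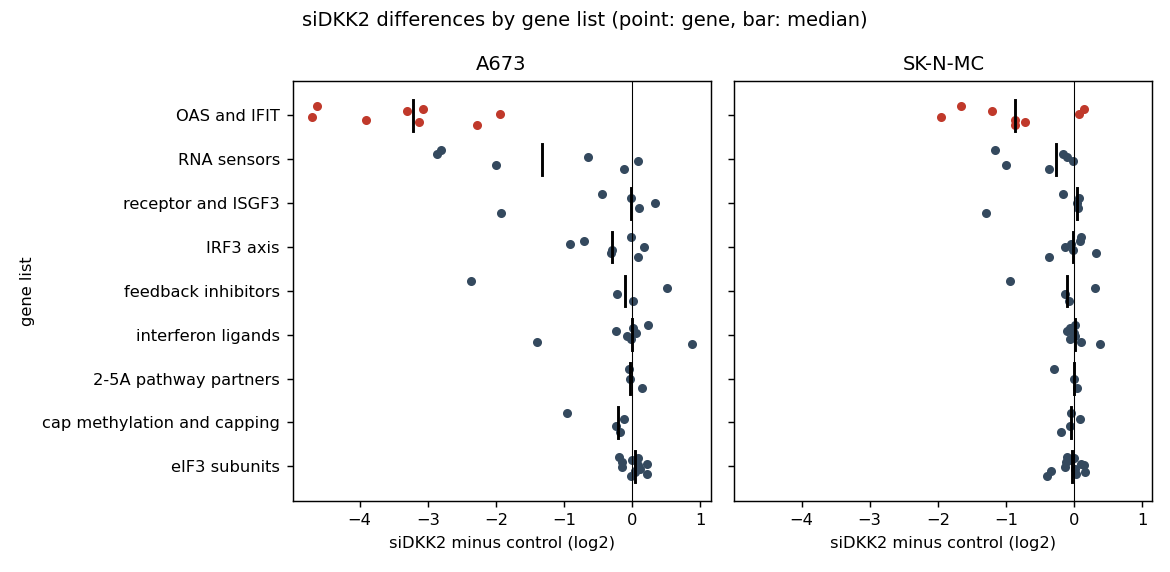
siDKK2 minus control (log2, x axis) in A673 (left) and SK-N-MC (right) for each measured gene (points) of the OAS and IFIT genes and of 8 gene lists, with black bars at the list medians and no error bars, since each line has 1 array per siRNA. The OAS and IFIT medians are -3.22 and -0.87; among the other lists the RNA sensors have the lowest medians, -1.32 and -0.27.

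Markers of other cell types were summed on the linear scale. The immune sum was 66.5 with siDKK2, 94.2 with siITM2A and 118.5 with control in A673 arrays, and 47.3, 57.5 and 54.65 for SK-N-MC. The fibroblast sum was 199.7, 264 and 272.5 in A673 arrays, and 163.8, 167.7 and 132.5 for SK-N-MC. CD68, a lysosomal protein gene named after its values were seen, stood at 5.11, 5.99 and 6.41 in A673 and at 4.06, 4.60 and 4.44 in SK-N-MC. The other 6 measured immune markers lay below the array median on every array. The endothelial sum was 22.56, 25.35 and 24.01 in A673 arrays, and 22.47, 22.73 and 22.07 for SK-N-MC. In A673 the immune sum differed mostly through CD68 and the fibroblast sum mostly through COL1A1, at 6.24, 7.23 and 7.21. COL1A1 is a collagen gene also named after its values were seen. The other fibroblast markers had A673 siDKK2 differences of 0.08 for COL3A1, -0.01 for DCN, 0.02 for LUM and -0.27 for PDGFRB and PDGFRA. In SK-N-MC the differences were 0.27 for COL1A1, 0.22 for COL3A1, 0.96 for DCN, -0.12 for LUM, -0.00 for PDGFRB and 0.11 for PDGFRA. The part of these markers in the result was not tested. In cultures, fewer cells with a transcript and less of it per cell cannot be told apart on such arrays.

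The members' patterns across the 6 arrays were alike once each line was centred on its own mean. The correlation of a member with the mean of the other 7 was 0.997 for IFIT3, 0.993 for OAS1, 0.992 for OAS3, 0.991 for IFIT2, 0.977 for IFIT1, 0.972 for IFIT5, 0.950 for OASL and 0.898 for OAS2 (Pearson r, n = 6 arrays). These values share arrays and rest largely on the siDKK2 arrays. Among 3061 other genes with a range of at least 1, the 6 closest to the mean of the 8 were KIAA0040 (r = 0.9995), IFI6 (0.9994), PLSCR1 (0.9986), ADCY7 (0.9977), ZC3HAV1 (0.9974) and IFI44L (0.9972). KIAA0040 lay below the array median on all 6 arrays, and passed the range filter through the difference between the lines, which the centring removes. ADCY7 also reached a range of 1 only across the lines, with levels of 4.41 to 5.13 in A673 and 4.11 to 4.31 in SK-N-MC. Likeness of shape was not likeness of size: siDKK2 minus control, for A673 and then SK-N-MC, was -4.13 and -1.18 for IFI6, -4.71 and -1.62 for IFI44L, -2.30 and -0.54 for PLSCR1 and -2.03 and -0.48 for ZC3HAV1. It was only -0.72 and -0.20 for ADCY7 and -0.34 and -0.08 for KIAA0040.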

How the data were processed

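Total RNA was hybridised to 6 Affymetrix whole-transcript arrays. The deposited values are log2 values per probe set; per the submitters' processing notes the authors used Affymetrix Expression Console and RMA. Its settings and the genome build: not given in the sources used here. The log2 scale was read from the range of 1.02 to 13.35. RMA evens the arrays and compresses dim values. No scanner files were used, so signal over background is unknown, and the number of arrays limits the precision.

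The members and lists were chosen with earlier results of these data known. Of 33297 probe sets, 19460 had 1 symbol, 1754 several and 12083 were not listed; 19429 Entrez numbers matched the current table. The probe set with the highest mean was kept for each of 18417 genes (769 had several). Each of the 6 columns was matched to 1 sample.

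R 4.3.3 and limma 3.58.1 (lmFit, eBayes) fitted the 6 arrays together, with terms for siRNA and for line, the line pairing the arrays per the labels (2 residual degrees of freedom, 8.28 after moderation). Adjusted p-values are Benjamini-Hochberg values across the 18417 genes, threshold 0.05. Nothing in the labels says that cultures were repeated. The p-values between siRNAs thus rest on how evenly the lines responded. Those between the lines rest on how even the line difference was across the 3 siRNAs. In both, the spread of a gene was moderated by that of all genes. The fit was tried on simulated data in which each shift was the same in both lines. On the log2 scale it recovered 2.6% of changed genes at 0.5, 78.6% at 1 and 100% at 2 and 4. Those data hold no unequal response of the lines, so they do not cover the pattern of the members. Named genes were the 8 members, DKK2 and ITM2A, up to 3 genes per list by the smaller of the lines' siDKK2 differences of 1 sign (all of a list of 4 or fewer), and the 6 genes nearest in pattern; others are said to have been named after their values were seen. Alternatives were the block, each array left out, trended or robust moderation, a level filter, centring, quantile normalization, a floor at the array median, the compared arrays alone, probe set means, other folds and another motif.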

Additional observations from a re-analysis of the deposited data

Results flagged for a closer look

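OAS2 and OASL were looked at again because their differences had opposite signs in the 2 lines in each comparison of siRNAs. With siDKK2 against control OAS2 differed by -3.07 for A673 and 0.15 for SK-N-MC, and OASL by -1.94 and 0.07. With siITM2A against control OAS2 differed by -1.55 and 0.08, and OASL by -0.37 and 0.05. With siDKK2 against siITM2A OAS2 differed by -1.52 and 0.07, and OASL by -1.56 and 0.02. Whether the lines differ was not tested, as there was 1 array for each line and siRNA. In SK-N-MC both genes lay below the array median on all 3 arrays.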

How the results depend on the processing

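With the same arrays compared, no alternative without a left-out array turned the sign of a member's fitted difference. For siDKK2 against control, members called ranged from 0 to 8, their median from -3.12 to -1.02 and genes called from 0 to 60 as single arrays were left out. Genes called numbered 2 on all arrays, 7 with an intensity trend, and 0 with no replicate block or with only the arrays compared. For siITM2A against control the left-out arrays gave a median of -1.35 to 0.29, turned without the A673 control array, and 0 to 4 genes called, against 2 on all arrays and 0 with no replicate block. The members' ranges were -1.95 to 0.48 for OAS2, -0.77 to 0.45 for OASL, -1.31 to 0.29 for IFIT1, -1.83 to 0.32 for IFIT2, -1.13 to 0.28 for IFIT3 and -0.50 to 0.23 for IFIT5. For siDKK2 against siITM2A they gave 0 to 7 members called and 1 to 50 genes called, with OAS2 at -1.93 to 0.47 and OASL at -1.67 to 0.13. Genes called were 3 on all arrays, 16 with an intensity trend, 6 at or above the median level, 18 (1 member) with only the arrays compared and 0 with no replicate block. For A673 against SK-N-MC, 2 to 8 members were called as arrays were left out, and 2 with no replicate block, with robust moderation or with the floor, against 6 on all arrays. The block pairs arrays of 1 line, or of 1 siRNA in the comparison of lines.

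The count at least 2-fold lower with siDKK2 in SK-N-MC was 3, and was 6 at 1.5-fold and 0 at 4-fold. For siITM2A it was 3 in A673, with 6 and 0, and 0 in SK-N-MC, with 1 at 1.5-fold. For siDKK2 against siITM2A in SK-N-MC it was 1, with 5 and 0. In SK-N-MC no gene was 4-fold lower with siDKK2, the lowest being -1.98 against control and -1.97 against siITM2A. The least changed member at 1.5-fold was IFIT3 for siDKK2 in SK-N-MC, position 155 from the lowest of all genes. For siITM2A it was IFIT3 in A673, position 274, and OAS1 in SK-N-MC, position 119. For siDKK2 against siITM2A in SK-N-MC it was OAS3, position 208. The other shares of all genes at 1.5-fold and 4-fold were not counted. With AANNGAAA, 5 of 5 member genes had a promoter match, against 4 with GAAANNGAA. The mean over probe sets left the members' values as they were, since each has 1 probe set. The cause of these shifts was not tested.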
